A study of Homo sapiens with 16 samples.

Results

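A retained intron is a stretch that one transcript model splices out while another model carries it whole inside an exon. Over the 4 full-length cDNA (IsoSeq) sets of models, 19912 of 178293 introns met this rule, with at least 10 nt of exon kept on both sides of the intron in the retaining model. They lay in 5677 named genes and formed 12094 groups of overlapping introns, since alternative splice sites give several introns at 1 place.

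The models came from HEK-293T, a human embryonic kidney line made to express large T antigen of SV40, and HT-1080, a human fibrosarcoma line. Cells of either line were transfected with siRNA at 20 nM, which targeted HNRNPH1 (siHNRNPH1) or served as negative control (siNegative), and were harvested for RNA after 48 h. HNRNPH1 encodes an RNA-binding protein of the hnRNP H/F family that binds runs of G and regulates splicing. Of the 16 samples, 4 were IsoSeq pools, 1 for each line and siRNA, each pooled from replicates, and 12 were short-read libraries, 3 biological replicates for each of the same 4 groups. A knockdown lowers a messenger without removing it, and both lines are transformed, so the pools speak for these cultures at 1 dose and 1 time.

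Intron retention is a common outcome of alternative splicing in human cells. A messenger that keeps an intron is often held in the nucleus as a "detained" transcript, or reaches the cytoplasm and is removed by nonsense-mediated decay when the intron brings a premature stop codon. Retained introns tend to be short and to have weak splice sites, and splicing factor genes such as the SR proteins use retention, together with poison exons, to set their own levels.

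The share used throughout is the percentage of models that retain an intron among the models that cover it, that is, whose span holds the intron and 10 nt on both sides. Each model counted once, whatever its abundance, so a share describes the variety of models and not the amount of RNA. With 1 pool per group there was no replicate, so no test was made between pools, and the 95% intervals are exact binomial intervals that cover counting error over models only.

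The 1562 microRNA hairpins of RefSeq (GRCh38.p14) on all chromosomes but 1, which was left out, were placed on the retained introns. Among these introns, 5 coincided base for base with a hairpin, out of 39 hairpins that lay inside a retained intron. Such whole-intron hairpins are known as mirtrons, and their mature arms show the ends of an intron that some models kept. In the lines below, printed 5′ to 3′, capitals mark the first 2 or the last 2 bases of the intron.
DHX30 intron start (hsa-miR-1226-5p): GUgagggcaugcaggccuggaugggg
DHX30 intron end (hsa-miR-1226-3p): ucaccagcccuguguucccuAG
ABCF1 intron start (hsa-miR-877-5p): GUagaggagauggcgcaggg
ABCF1 intron end (hsa-miR-877-3p): uccucuucucccuccucccAG
TRIM28 intron start (hsa-miR-6807-5p): GUgagccaguggaauggagagg
TRIM28 intron end (hsa-miR-6807-3p): cacugcauuccugcuuggcccAG
ARF1 intron end (hsa-miR-3620-3p): ucacccugcaucccgcacccAG
PIM3 intron end (hsa-miR-6821-3p): ugaccucuccgcuccgcacAG
All 5 of these introns began with GU and ended with AG, the usual splice-site bases. The 75-nt intron of DHX30, an RNA helicase gene (chr3:47849555-47849629, plus strand), was retained by 0 of 42 and 0 of 43 models in the HEK-293T siNegative and siHNRNPH1 pools and by 1 of 26 and 0 of 26 models in the HT-1080 pools. In ABCF1, which encodes a translation factor of the ABC family, the 86-nt intron (chr6:30584332-30584417, plus strand) was retained by 0 of 9, 1 of 22, 1 of 13 and 1 of 7 models in the same order. TRIM28, a transcriptional corepressor gene, kept its 92-nt intron (chr19:58550285-58550376, plus strand) in 0 of 6, 1 of 5, 1 of 20 and 0 of 15 models. Retention of these mirtrons was thus rare in every pool that covered them deeply, with 1 or 0 retaining models a pool. By contrast, the 481-nt intron of EIF4A2 that holds MIR1248 (chr3:186786646-186787126, plus strand) was retained by 5 of 26, 8 of 56, 8 of 56 and 6 of 44 models, which was 19.2%, 14.3%, 14.3% and 13.6%.

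Depth and labels were checked first. The pools held 64705 (HEK-293T siNegative), 94847 (HEK-293T siHNRNPH1), 72186 (HT-1080 siNegative) and 68078 (HT-1080 siHNRNPH1) models, and 11647, 13632, 10657 and 9692 introns were retained by at least 1 model of the pool in that order. Within each line the pool with more models held more retained introns, and the part of model number in these counts was not tested. The short-read libraries held 107.7 to 121.0 M expected counts in HEK-293T and 27.3 to 32.7 M in HT-1080. LIN28B, an RNA-binding protein gene active in HEK-293T, stood at 175 to 180 CPM (counts scaled to the library total) in the HEK-293T siNegative libraries. In those of HT-1080 it stood at 19.0 to 26.1, while the surface receptor CD44 stood at 1.51 to 1.89 and 2876 to 3129. CDH2, also chosen as a HEK-293T marker, did not separate the lines, at 91.6 to 93.9 and 82.6 to 94.9. The other chosen markers were higher in their own line, though PAX2 was low in HEK-293T too, at 1.25 to 1.46. HNRNPH1 itself was at 1105 to 1121 CPM with siNegative and 234 to 394 CPM with siHNRNPH1 in HEK-293T, and at 606 to 635 and 228 to 231 CPM in HT-1080, so the groups did not overlap. It fell by 1.76 ± 0.20 (log2, SE) in HEK-293T and 1.49 ± 0.04 in HT-1080 (edgeR's quasi-likelihood test, adjusted p = 0.00939 and 6.76e-09). Without any 1 of the HEK-293T siNegative libraries the adjusted p was 0.0743 to 0.076, and without the second siHNRNPH1 library 0.0514 (edgeR). Reads of HNRNPH1 and its close relative HNRNPH2 may be hard to tell apart, so these levels are uncertain to that extent. The first HEK-293T siHNRNPH1 library stood apart from the other 2 of its group (chi-square per degree of freedom 740 and 773, against 8.46 between those 2).

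Retained introns were short. Their median length was 507 nt (quartiles 205 and 1091 nt), against 2298 nt (795 and 6341 nt) for the 158381 introns that no model retained. Introns of 5000 nt or more made up 0.0753% of the retained and 30.1% of the never retained introns. Retention of a long intron needs a model with an exon longer than it, and the median model was 2713 to 3250 nt long in the 4 pools, so the length of the models bounds what can be found. The shortest members were 6 nt, and 81 were under 50 nt, a size at which a gap in an alignment and an intron cannot be told apart here. Lengths divisible by 3 were as frequent among retained (33.5%) as among never retained introns (33.4%).

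**Figure D1:**
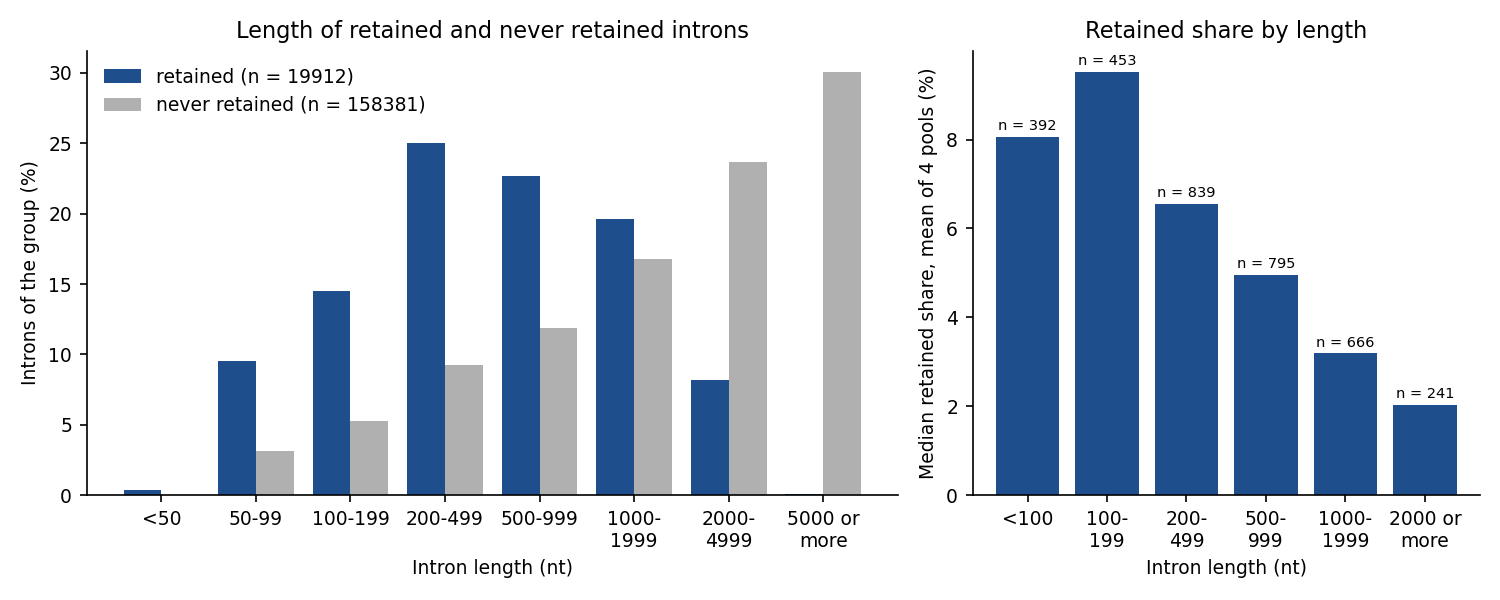
Left, percentage of retained (blue) and never retained (grey) introns in each class of length in nt. Right, median retained share of the 3386 introns with at least 10 covering models in each pool, as a mean over 4 pools, by length. Retained introns peak between 200 and 500 nt, and the share falls from 9.52% between 100 and 200 nt to 2.04% at 2000 nt or more.

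Last introns were more frequent among the members. Of the retained introns 22% were last introns, against 10.8% of those never retained, while internal introns made up 58.7% and 72.8% and first introns 18.3% and 15.3%. The exon that held the intron was internal for 9516 introns (47.8%), a last exon for 5715 (28.7%), a first exon for 4346 (21.8%) and a single-exon model for 335. Support was thin for many: 6020 introns (30.2%) were retained by 1 model of the union, and 4859 (24.4%) were spliced out in 1 model of the union. The members covered a wide range between these ends, with 9241 (46.4%) spliced exactly as annotated by the model in at least 50% of covering models and 6140 (30.8%) in under 10%. The latter are stretches that nearly all models carry as exon or splice with other ends. By pool, 5041 introns were retained in all 4 pools and 7053 in 1 pool.

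Most well-covered retained introns were kept by few models. Of the 3386 with at least 10 covering models in each pool, 1667 had a mean share under 5%, 942 lay at 5 to 20%, 400 at 20 to 50%, 137 at 50 to 80% and 240 at 80 to 100%. Length fell along these classes, from a median of 655 nt to 489, 373.5, 279 and 188.5 nt. In the highest class 61.7% were last introns, against 14.4% in the lowest.

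Among the introns with the highest share in their lowest pool, below 90% there, were those of G3BP1, COPA, HSPH1 and HNRNPU. G3BP1 encodes a core protein of stress granules, and its 409-nt last intron (chr5:151803997-151804405, plus strand) was retained by 32 of 36 (88.9%), 45 of 51 (88.2%), 29 of 32 (90.6%) and 25 of 27 models (92.6%) in the HEK-293T siNegative, HEK-293T siHNRNPH1, HT-1080 siNegative and HT-1080 siHNRNPH1 pools, the order used from here on. HSPH1, which encodes a chaperone of the HSP110 family, kept its 250-nt last intron (chr13:31137118-31137367, minus strand) in 85.7%, 81.0%, 88.6% and 89.7%. The G3BP1 and HSPH1 introns showed no common direction with the siRNA, since each differed one way in HEK-293T and the other way in HT-1080.

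Genes with the most retained introns were ACADVL (32), EIF4G2 (29), DDX5 and KRIT1 (25 each) and HSP90B1 (24). ACADVL encodes the very long-chain acyl-CoA dehydrogenase of mitochondrial fatty acid oxidation, EIF4G2 a translation initiation factor, DDX5 an RNA helicase and HSP90B1 a chaperone of the endoplasmic reticulum. Most genes had few, with a median of 2 per gene and 1827 genes with 1.

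Retention as a whole differed little between the pools of a line. Of the models with several exons, 26.9% (26.6 to 27.2%) retained at least 1 intron in HEK-293T with siNegative and 26.0% (25.7 to 26.3%) with siHNRNPH1, and in HT-1080 the shares were 21.7% (21.4 to 22%) and 20.8% (20.5 to 21.1%). Both siHNRNPH1 pools thus lay below their siNegative pool by under 1 point, and the lines differed by about 5 points. The spread between replicate pools is unknown, so these differences have no replicate check. Differences in model length moved with the lines, at medians of 3250 and 3094 nt in HEK-293T and 2713 and 2821 nt in HT-1080, and their part in the share was not tested.

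Intron by intron, the distributions were nearly the same with either siRNA. In HEK-293T 6388 retained introns had at least 10 covering models in both pools, and their median share was 9.09% with siNegative and 7.69% with siHNRNPH1. The share was higher with siHNRNPH1 for 2640 introns, lower for 3216 and equal for 532. It was at least 20 points higher for 85 introns (1.33% of those measured) in 50 genes and at least 20 points lower for 132 (2.07%) in 61 genes. HT-1080 gave 5258 measured introns with a median share of 6.25% in both pools. There 1772 were higher, 2032 lower and 1454 equal, and 50 introns (0.951%) in 28 genes were at least 20 points higher and 92 (1.75%) in 33 genes at least 20 points lower. Shares past 20 points rested on few models: their median covering number was 13 and 17 models in HEK-293T and 15 and 12 in HT-1080. Requiring 20 covering models left 15 higher and 12 lower in HEK-293T and 2 and 8 in HT-1080. The exact intervals of the pair of pools were apart for 5 introns in HEK-293T and 4 in HT-1080.

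**Figure D2:**
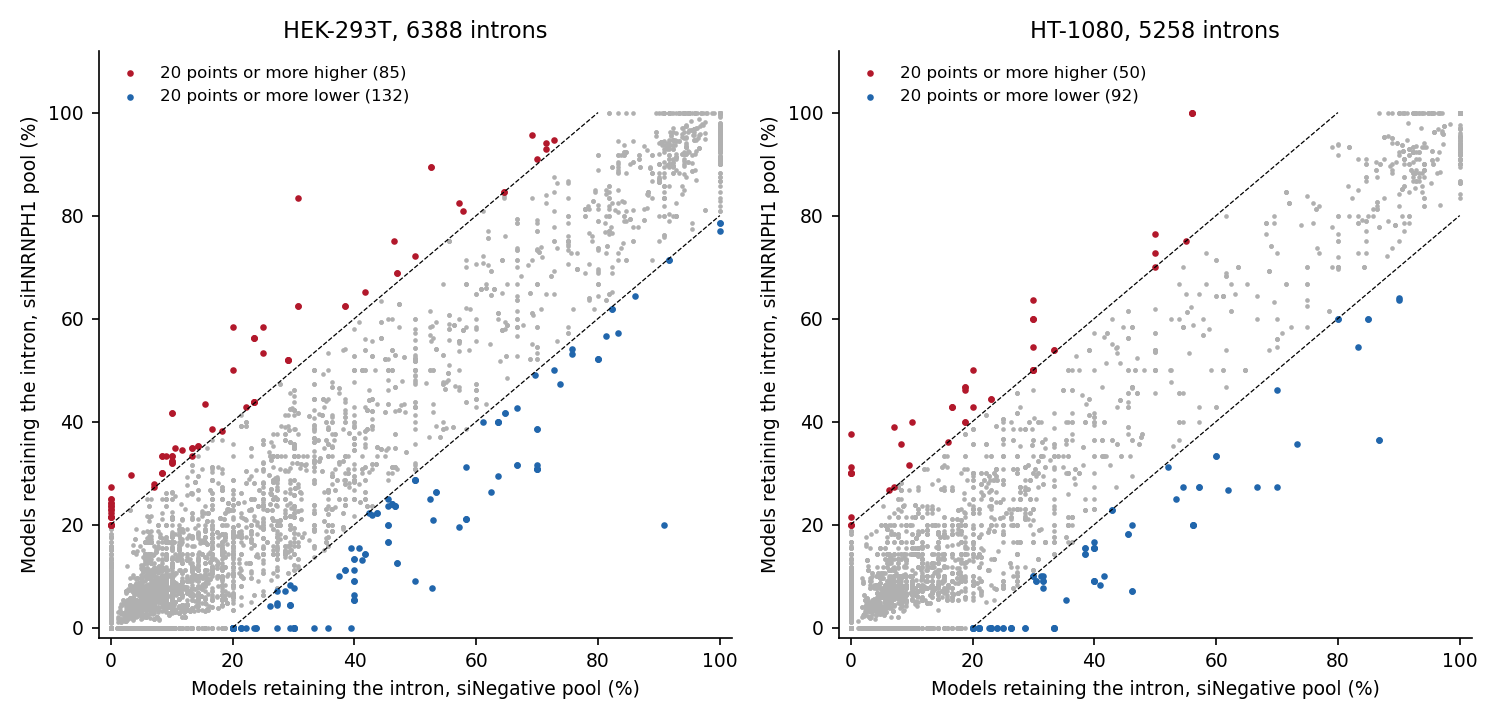
Percentage of covering models that retain each intron in the siHNRNPH1 pool (vertical) against the siNegative pool (horizontal) of HEK-293T (left, 6388 introns) and HT-1080 (right, 5258). Dashed lines mark 20 points. Most introns lie between the lines, with 85 above and 132 below in HEK-293T and 50 above and 92 below in HT-1080.

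Long introns were on the lower side in HEK-293T. Of 1752 measured introns of 1000 nt or more, 9 were at least 20 points higher with siHNRNPH1 and 46 at least 20 points lower, in 7 and 22 genes. The counts in HT-1080 were 9 and 3 of 1360, so the imbalance was not seen there, and the difference between lines was not tested. Among introns under 100 nt the counts were 16 and 12 of 660 in HEK-293T and 3 and 14 of 621 in HT-1080.

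The siNegative share of an intron told most of its share elsewhere. Over the 3386 introns measured in both lines Pearson's r was 0.933 between the siNegative shares of the lines, 0.962 between the pools of HEK-293T and 0.965 between those of HT-1080. Overlapping introns share models, so these points are not independent. Lines differed in 1 direction more often: 204 introns had a siNegative share at least 20 points higher in HEK-293T, and 45 at least 20 points lower.

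Few introns were past 20 points in both lines. Of the same 3386 introns 34 were at least 20 points higher in HEK-293T and 19 in HT-1080, and 2 were so in both. These 2 were 5.88% of the HEK-293T list, beside 0.561% of all 3386 introns that were higher in HT-1080. They were 10.5% of the HT-1080 list, beside 1% of all that were higher in HEK-293T. At least 20 points lower were 46 in HEK-293T and 37 in HT-1080, and 2 in both. These 2 were 4.35% of the HEK-293T list, beside 1.09% of all that were lower in HT-1080. They were 5.41% of the HT-1080 list, beside 1.36% of all that were lower in HEK-293T. Of the 46 introns lower in HEK-293T, 32 had a difference below 0 in HT-1080, against 1129 of all 3386, and of the 34 higher ones 15 had a difference above 0 there, against 1032 of 3386. Of the 37 lower in HT-1080, 15 had a difference below 0 in HEK-293T, against 1609 of 3386, and of the 19 higher ones 13 were above 0, against 1404. Overlapping introns at 1 place enter these counts more than once. The correlation of the differences between lines was 0.111, as a description over introns.

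**Figure D3:**
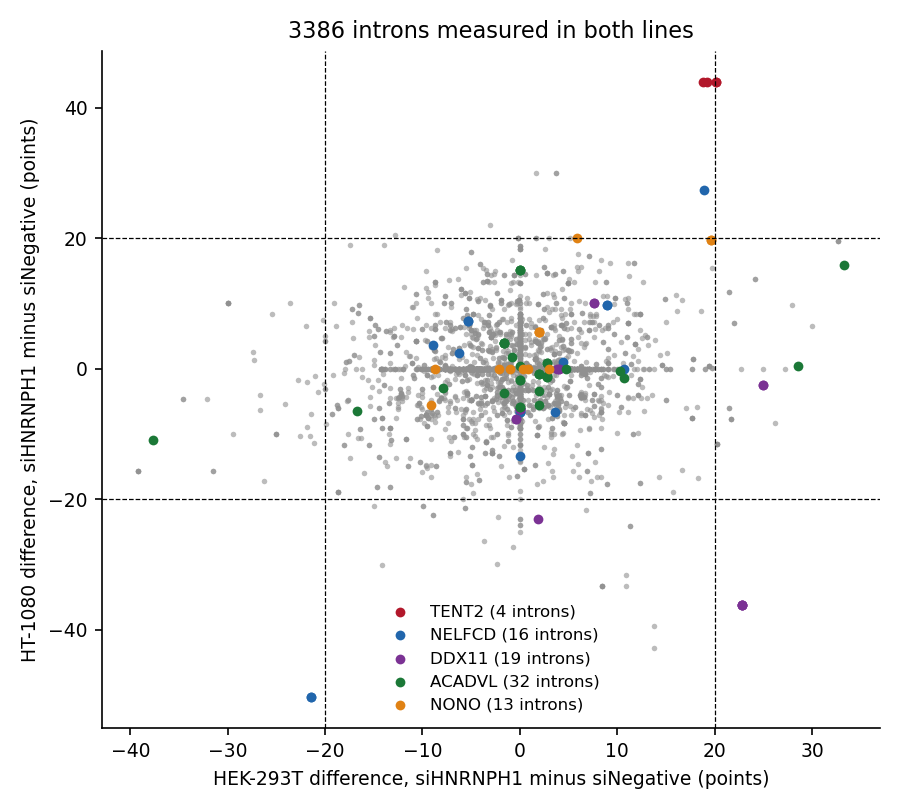
Difference in retained share, siHNRNPH1 minus siNegative, in HT-1080 (vertical) against HEK-293T (horizontal), in percentage points, for 3386 introns, with those of 5 genes coloured. Dashed lines mark 20 points. Introns of TENT2 lie at the upper right, 2 NELFCD introns at the lower left and 4 DDX11 introns at the lower right, where points of the same value cover each other.

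The introns that were past 20 points in both lines were overlapping members of 1 place in TENT2 and 1 in NELFCD, singled out after their values were seen. TENT2 encodes a cytoplasmic poly(A) polymerase. Its first intron of 241 nt (chr5:79612770-79613010, plus strand), held in a first exon, was retained by 20 of 31 models (64.5%, 45.4 to 80.8%) and 33 of 39 (84.6%, 69.5 to 94.1%) in HEK-293T, and by 14 of 25 (56.0%, 34.9 to 75.6%) and 18 of 18 (100%, 81.5 to 100%) in HT-1080. The share was higher with siHNRNPH1 in both lines, and in HT-1080 the intervals were apart. NELFCD encodes a subunit of the negative elongation factor of RNA polymerase II. Its 101-nt last intron (chr20:58994825-58994925, plus strand) was retained by 16 of 16 (100%) and 22 of 28 models (78.6%) in HEK-293T and by 13 of 15 (86.7%) and 4 of 11 (36.4%) in HT-1080. Here both siHNRNPH1 pools were lower, with intervals that overlapped in each line. Models that spliced exactly numbered 6, 2, 6 and 0 for the TENT2 intron and 0, 5, 2 and 7 for that of NELFCD. Over retaining plus exactly spliced models both kept their direction in each line. By that share neither they nor the overlapping members were past 20 points in HEK-293T.

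The other introns with intervals apart, also picked by their values, each did so in HEK-293T. CCNL2 encodes a cyclin L that binds splicing factors, and its 194-nt last intron (chr1:1387583-1387776, minus strand) was retained by 2 of 64 models (3.12%, 0.381 to 10.8%) with siNegative and 21 of 92 (22.8%, 14.7 to 32.8%) with siHNRNPH1. In HT-1080 it was retained by 2 of 45 (4.44%) and 2 of 44 (4.55%), so no such difference was seen there. CHTF18 encodes a subunit of an alternative clamp loader for DNA replication. Its 480-nt internal intron (chr16:791371-791850, plus strand) went from 4 of 13 models (30.8%, 9.09 to 61.4%) to 20 of 24 (83.3%, 62.6 to 95.3%), while HT-1080 had 1 of 5 and 0 of 3. SLC33A1, the acetyl-CoA transporter gene, kept its 1362-nt last intron (chr3:155826820-155828181, minus strand) in 10 of 11 models (90.9%, 58.7 to 99.8%) with siNegative and 3 of 15 (20.0%, 4.33 to 48.1%) with siHNRNPH1, and in 7 of 8 and 3 of 5 in HT-1080.

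By the rule for named introns (at least 20 covering models in each pool, the same direction in both lines, ranked by the smaller of the 2 differences, 1 per gene) the 10 introns with a higher share in both siHNRNPH1 pools lay in NONO, ACADVL, EIF4A2, PCBP2, NCL, RBM39, UBA1, SRSF5, HP1BP3 and MATR3. NONO encodes a paraspeckle protein that binds RNA and DNA. The intron ranked first there, of 126 nt, starts at the same base as a commonly spliced 374-nt intron (chrX:71297462-71297835, plus strand) and had the same counts. That 374-nt intron was retained by 10 of 36 models (27.8%, 14.2 to 45.2%) and 27 of 57 (47.4%, 34.0 to 61.0%) in HEK-293T, and by 2 of 24 (8.33%, 1.03 to 27%) and 7 of 25 (28.0%, 12.1 to 49.4%) in HT-1080. The differences were 19.6 and 19.7 points, and the intervals overlapped in each line. The next NONO intron, of 530 nt (chrX:71297939-71298468), was retained by 52.8%, 58.6%, 16.0% and 36.0% of models. With at least 50 nt of exon on both sides in place of 10, the difference of that intron became -8.72 points in HEK-293T and 0 in HT-1080.

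EIF4A2 encodes an RNA helicase of the translation initiation complex. Its 427-nt intron near the 3′ end (chr3:186787883-186788309, plus strand), which starts with the named 409-nt intron and has the same counts, was retained by 12 of 27 (44.4%, 25.5 to 64.7%), 35 of 59 (59.3%, 45.7 to 71.9%), 17 of 58 (29.3%, 18.1 to 42.7%) and 18 of 45 models (40.0%, 25.7 to 55.7%). The shares were higher with siHNRNPH1 by 14.9 and 10.7 points, with overlapping intervals. Counted over retaining models and those with exactly the 409-nt intron, the HEK-293T difference was 0, as nearly no model splices that intron. The 427-nt intron itself was spliced exactly by 12, 15, 29 and 12 models, beside the 12, 35, 17 and 18 that retained it. Over these models its share was higher with siHNRNPH1 in both lines, by more than over all covering models. MATR3, which encodes a nuclear matrix protein that binds RNA, gave 10 of 87 (11.5%), 32 of 133 (24.1%), 4 of 51 (7.84%) and 6 of 48 (12.5%) for a seldom spliced 99-nt intron (chr5:139325341-139325439, plus strand). SRSF5, an SR splicing factor gene, gave 29.7%, 42.6%, 23.3% and 28.6% for a 285-nt intron (chr14:69768897-69769181, plus strand). RBM39, a splicing factor gene, gave 38.5%, 44.3%, 25% and 40.5% for a 375-nt intron (chr20:35739018-35739392, minus strand), and over retaining plus exactly spliced models its HT-1080 difference was -11.8 points.

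The 10 introns with a lower share in both siHNRNPH1 pools lay in CSNK1D, HNRNPU, ACADVL, TAF1C, COPA, PSMD2, SLC38A1, RPN2, CTNNB1 and NAP1L4. CSNK1D encodes casein kinase 1 delta, and a 95-nt internal intron that few models spliced (chr17:82249603-82249697, minus strand) was retained by 4 of 25 models (16.0%) with siNegative in each line, and by 0 of 36 and 0 of 26 with siHNRNPH1, which allows shares up to 9.74% and 13.2% by the exact interval. COPA encodes a coat protein of Golgi vesicles, and its 209-nt last intron (chr1:160289924-160290132, minus strand) was retained by 39 of 40 (97.5%), 43 of 53 (81.1%), 31 of 31 (100%) and 39 of 43 models (90.7%). HNRNPU encodes a nuclear matrix hnRNP, and a 346-nt first intron (chr1:244864077-244864422, minus strand) was retained by 88.9%, 71.4%, 100% and 86.4%. Nearly all other covering models of these COPA and HNRNPU introns spliced with other ends, and the HEK-293T differences over retaining plus exactly spliced models were 0 and -1.73 points. PSMD2, a proteasome subunit gene, gave 35.0%, 15.2%, 17.1% and 8.57% for a 229-nt intron (chr3:184304075-184304303, plus strand).

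**Figure D4:**
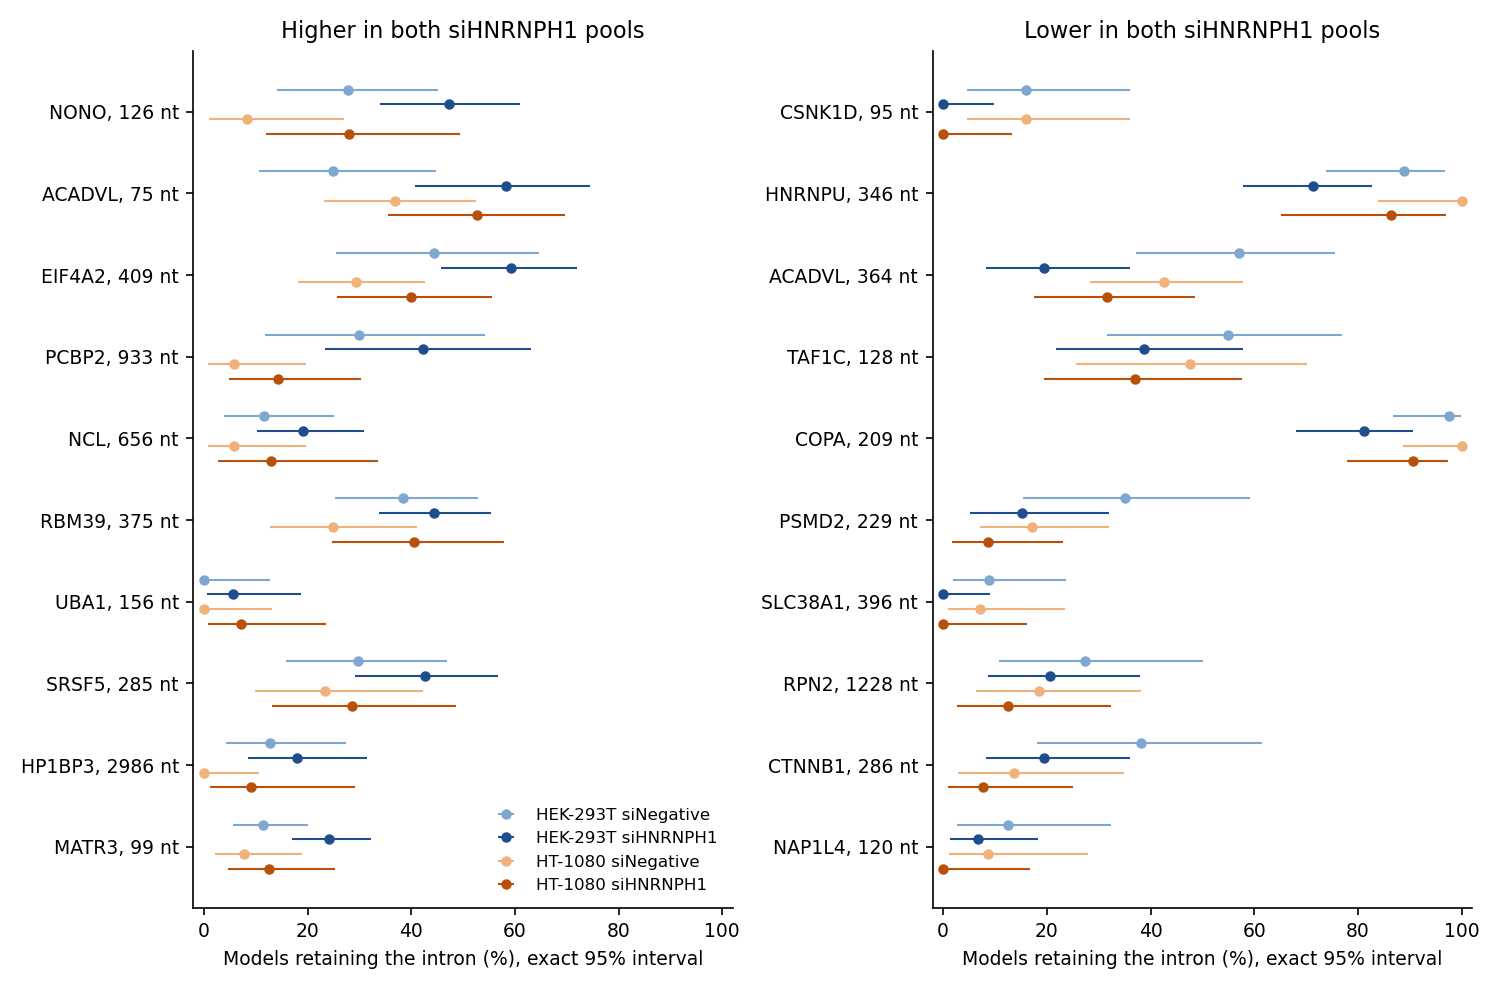
Percentage of covering models that retain the 20 named introns in the 4 pools (light blue and dark blue, HEK-293T siNegative and siHNRNPH1; light and dark orange, HT-1080), with exact 95% intervals. The intervals of the siNegative and siHNRNPH1 pools overlap within each line for all but the 364-nt ACADVL intron in HEK-293T.

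ACADVL was the gene with introns named in both directions. Its 75-nt first intron (chr17:7220047-7220121, plus strand) was retained by 7 of 28 (25%, 10.7 to 44.9%), 21 of 36 (58.3%, 40.8 to 74.5%), 17 of 46 (37.0%, 23.2 to 52.5%) and 19 of 36 models (52.8%, 35.5 to 69.6%). A 364-nt internal intron farther down the gene (chr17:7222303-7222666) went the other way, at 16 of 28 (57.1%, 37.2 to 75.5%), 7 of 36 (19.4%, 8.19 to 36.0%), 20 of 47 (42.6%, 28.3 to 57.8%) and 12 of 38 (31.6%, 17.5 to 48.7%). A 74-nt intron (chr17:7220530-7220603) was retained by 46.4% and 75% of HEK-293T models and by 23.9% and 24.3% of HT-1080 models, so its difference was seen in 1 line. Between the 74-nt and the 364-nt intron lay 4 introns of 89 to 479 nt that were retained by 0 to 6.52% of models in every pool, and then a 95-nt intron (chr17:7222082-7222176) that was retained by 75%, 58.3%, 69.6% and 63.2%. High and low shares thus alternated along the gene.

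**Figure D5:**
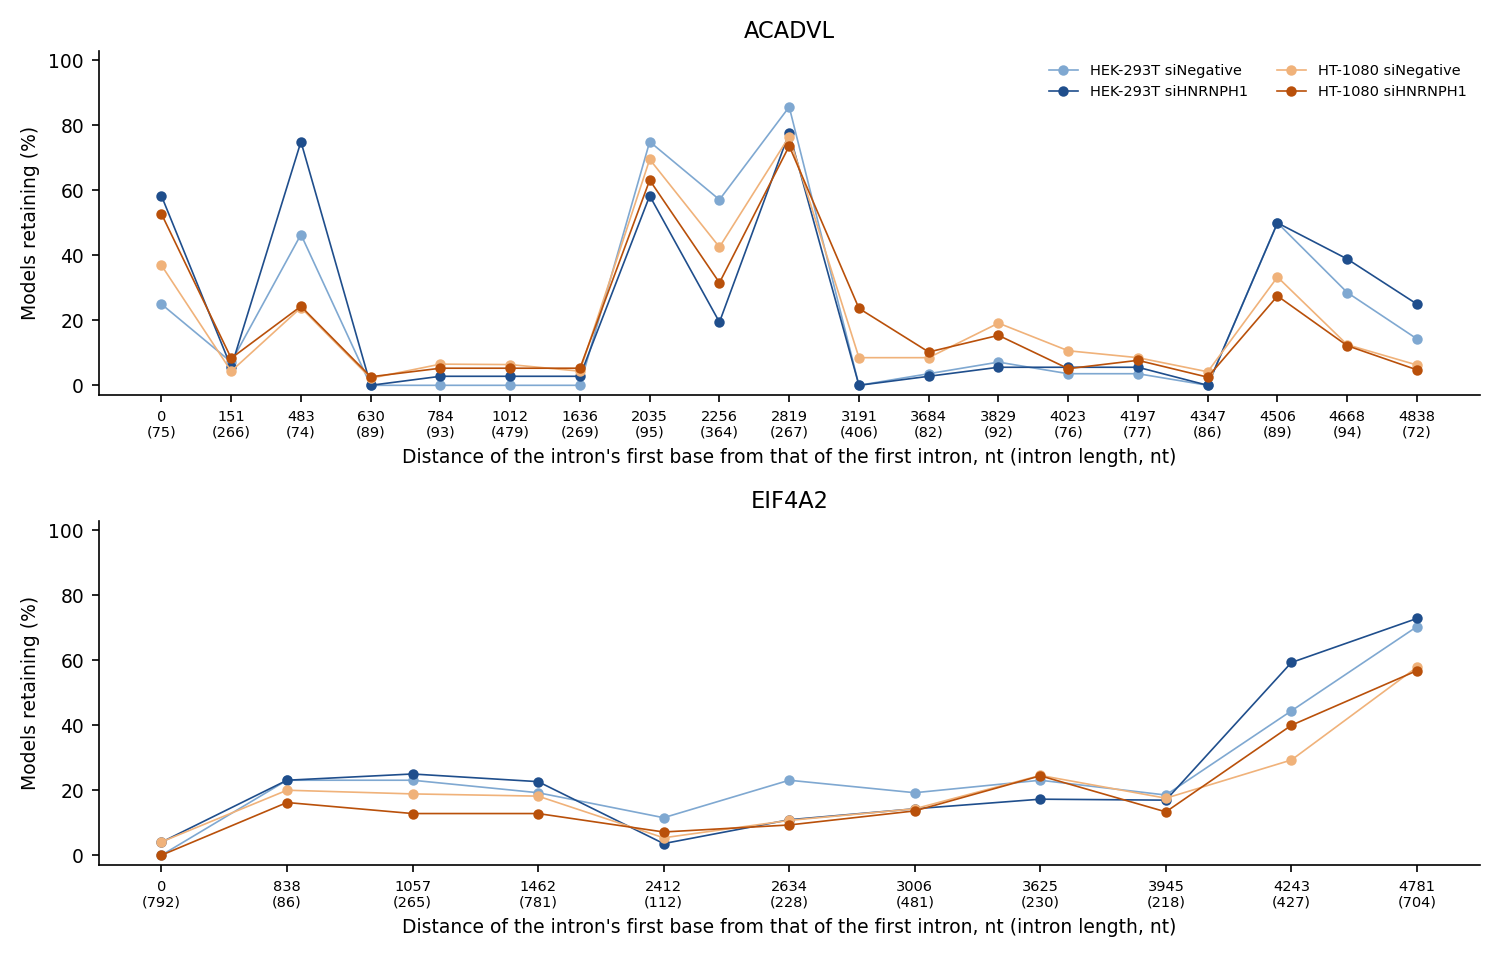
Percentage of models that retain each commonly spliced intron (spliced in at least 20 models, the most used of overlapping ones) of ACADVL (top) and EIF4A2 (bottom), ordered from the 5′ end with the distance from the first intron in nt and the intron length in parentheses. In ACADVL high and low introns alternate along the gene, while in EIF4A2 the 2 introns nearest the 3′ end, at 29.3 to 72.9%, stand above the rest.

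Within HEK-293T, the introns with the largest differences on at least 20 covering models lay in ACADVL, ODF2, DEK, DDX11 and TRO on the higher side and in ACADVL, FXR1, PPHLN1, SRSF7 and HNRNPH3 on the lower. DEK encodes a chromatin protein, and its 443-nt last intron (chr6:18225731-18226173, minus strand) was retained by 1 of 30 models (3.33%, 0.0844 to 17.2%) and 13 of 44 (29.5%, 16.8 to 45.2%), against 2 of 24 and 0 of 13 in HT-1080. ODF2, a centrosome protein gene, gave 4 of 26 (15.4%) and 13 of 30 (43.3%) for a 1372-nt intron (chr9:128494669-128496040, plus strand), and 2 of 15 and 3 of 13 in HT-1080. FXR1 encodes an RNA-binding relative of FMR1, and its 87-nt intron (chr3:180962941-180963027, plus strand) gave 11 of 21 (52.4%, 29.8 to 74.3%) and 5 of 20 (25%, 8.66 to 49.1%), against 23.8% and 26.3% in HT-1080. PPHLN1, a gene of the HUSH silencing complex, gave 40.7% and 15.4% for a 301-nt last intron (chr12:42446291-42446591, plus strand), and 0 of 10 and 0 of 8 in HT-1080. None of these was past 20 points in both lines.

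SRSF7 and HNRNPH3 are splicing factor genes. In SRSF7, which encodes an SR protein, the 875-nt intron (chr2:38748654-38749528, minus strand) was retained by 22 of 33 (66.7%), 20 of 47 (42.6%), 7 of 23 (30.4%) and 4 of 16 models (25%). HNRNPH3 encodes a smaller relative of HNRNPH1. Its 506-nt intron (chr10:68337997-68338502, plus strand) was retained by 6 of 23 (26.1%, 10.2 to 48.4%) and 2 of 47 models (4.26%, 0.52 to 14.5%) in HEK-293T and by 1 of 18 and 1 of 28 in HT-1080. The neighbouring 524-nt intron (chr10:68337334-68337857) was retained by 40.9% and 24.4% in HEK-293T and by 5.56% and 15.4% in HT-1080, so the lines moved in opposite directions there.

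In HT-1080 the higher side held CCNL1, NONO, ACADVL, RBM39 and AP2M1, and the lower side NAXD, MMP14, FKBP10, SEC24C and HNRNPDL. CCNL1, a cyclin L gene like CCNL2, gave 11 of 20 (55.0%) and 15 of 20 (75%) for a 1104-nt intron (chr3:157150382-157151485, minus strand). MMP14 encodes a membrane-bound matrix metalloproteinase, and no HEK-293T model covered its 67-nt last intron (chr14:22847256-22847322, plus strand), which was retained by 18 of 20 (90%) and 16 of 25 models (64.0%) in HT-1080. FKBP10 encodes a collagen chaperone, and its 485-nt intron (chr17:41820462-41820946, plus strand), which shares the counts of the named 245-nt intron, gave 35.3%, 16.7%, 30% and 11.1%. HNRNPDL, an hnRNP gene, gave 0 of 28, 1 of 42, 6 of 27 (22.2%) and 1 of 20 (5.00%) for an 801-nt first intron (chr4:82428447-82429247, minus strand).

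Single genes held many of the introns past 20 points in HT-1080. NOP56, which encodes a core protein of box C/D small nucleolar ribonucleoproteins, held 10 of the 92 lower introns, with differences of -42.7 to -21.1 points, on 10 or 11 covering models in the siHNRNPH1 pool. Its 186-nt intron (chr20:2656215-2656400, plus strand) was retained by 13 of 21 (61.9%), 28 of 37 (75.7%), 14 of 21 (66.7%) and 3 of 11 models (27.3%), so the HEK-293T pools went the other way. HMGN1, a nucleosome-binding protein gene, held 8 of the 50 higher introns of HT-1080, each on 10 covering models a pool.

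The introns of the depleted messenger itself were outside the rule, as too few models covered them, and are given as chosen afterwards. Models that covered the 945-nt intron of HNRNPH1 (chr5:179618324-179619268, minus strand) numbered 36 in the siNegative and 13 in the siHNRNPH1 pool of HEK-293T, and 14 and 2 in HT-1080. It was retained by 19 of 36 (52.8%, 35.5 to 69.6%) and 1 of 13 (7.69%, 0.195 to 36.0%) in HEK-293T and by 0 of 14 and 0 of 2 in HT-1080. The neighbouring 1484-nt intron (chr5:179619408-179620891) was retained by 13 of 33 (39.4%) and 2 of 13 (15.4%). A 92-nt intron (chr5:179616959-179617050) lay on the other side, at 8 of 36 (22.2%) and 6 of 14 (42.9%). In HT-1080 none of the 12 retained introns of HNRNPH1 was retained by any of its 14 or 15 siNegative models, which allows shares up to 23.2% by the exact interval of 0 of 14.

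EIF4G1 and AURKA, the genes named in the series title, had 6 and 1 retained introns, beside a median of 2 per gene. EIF4G1 encodes the scaffold of the cap-binding complex, and 5 of its 6 retained introns were kept by 0 to 3.85% of 43 to 95 covering models in every pool. The sixth, of 51 nt (chr3:184332015-184332065, plus strand), was spliced by few models and retained by 92.6%, 93.8%, 97.5% and 97.3%. AURKA encodes a mitotic kinase, and its retained intron was of 2748 nt (chr20:56370660-56373407, minus strand) and kept by 1 of 14, 1 of 16, 0 of 23 and 0 of 14 models. No difference with siHNRNPH1 was detectable in either gene at this number of models.

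Genes known for detained introns held 1 intron past 20 points in each line. Over all measured introns 1.33% were higher and 2.07% lower by 20 points in HEK-293T, and 0.951% and 1.75% in HT-1080. Counts this small cannot tell the list from all introns. The list of 16 (CLK kinases, OGT, MAT2A, DDX5 and splicing factors) held 110 measured introns in HEK-293T with a median difference of 0 points, 0 at least 20 points higher and 1 at least 20 points lower, beside medians of -0.11 over all measured introns. In HT-1080 it held 81 with a median of 1.67, 1 higher and 0 lower by 20 points, beside a median of 0. By sign alone, 45 of these introns had a higher and 54 a lower share with siHNRNPH1 in HEK-293T, beside 2640 and 3216 over all, and 44 a higher and 25 a lower share in HT-1080, beside 1772 and 2032. The HEK-293T introns lay in 11 genes and the HT-1080 introns in 7. The CLK1 introns known to be detained, of 378 nt (chr2:200859747-200860124, minus strand) and 1022 nt (chr2:200860216-200861237), chosen afterwards, were retained by 11 of 15 (73.3%) and 11 of 14 (78.6%) siNegative models and by 14 of 19 (73.7%) and 12 of 17 (70.6%) siHNRNPH1 models of HEK-293T, with 4 covering models a pool in HT-1080. CLK1 encodes a kinase of SR proteins. A 1026-nt intron of MAT2A (chr2:85543726-85544751, plus strand), the gene of the enzyme that makes S-adenosylmethionine, was retained by 100%, 98.0%, 97.1% and 96.4% of models. For OGT, the enzyme that adds O-GlcNAc to proteins, a 1417-nt intron (chrX:71546490-71547906, plus strand) was retained by 30%, 22.2%, 20.0% and 30%. By rule the intron taken from a list gene was that with the largest mean share over the 4 pools. MAT2A held 15 retained introns and OGT 5, so these shares do not describe the whole gene. Whether these are the introns known to be detained was not tested.

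The other gene lists held up to 6 introns past 20 points on 1 side. The 11 SR protein genes held 69 measured introns in HEK-293T (median difference -1.09 points, 0 higher and 4 lower by at least 20 points, all 4 in SRSF7) and 67 in HT-1080 (median 0, with 0 and 1). The 26 hnRNP genes held 132 (median -1.08, with 1 and 6) and 119 (median 0, with 0 and 0). The 18 cytosolic aminoacyl-tRNA synthetase genes, which charge transfer RNAs, held 74 (median -0.85, with 0 and 1) and 71 (median 0.32, with 0 and 0). Ribosomal protein genes are short and highly expressed, and 13 introns of them were measured in HEK-293T, all in 1 gene (median -6.95, with 0 and 1), and 45 in HT-1080 (median 0, with 0 and 4). For these lists the shares past 20 points can be read beside 1.33% and 2.07% of all introns measured in HEK-293T and 0.951% and 1.75% in HT-1080.

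Within the lists, shares ranged from high in every pool to higher in 1 line. A 372-nt last intron of SRSF1 (chr17:58005042-58005413, minus strand) was retained by 95.5%, 96.6%, 96.4% and 100% of models, and a 118-nt intron of DDX5 (chr17:64501892-64502009, minus strand) by 61.5%, 66.0%, 50% and 53.5%. DDX39B, an RNA export helicase gene, gave 82.9%, 81.1%, 57.1% and 64.7% for a 747-nt intron (chr6:31532912-31533658, minus strand). A 933-nt intron of PCBP2 (chr12:53467844-53468776, plus strand), a poly(C)-binding protein gene, gave 30%, 42.3%, 5.88% and 14.3%. CARS1, the cysteinyl-tRNA synthetase gene, gave 70.0%, 66.7%, 22.2% and 35.7% for a 467-nt intron (chr11:3002054-3002520, minus strand). In DDX39B, PCBP2 and CARS1 both HEK-293T pools were above both HT-1080 pools.

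The short-read libraries gave a replicated measure of the genes that host these introns, though they did not separate retained from spliced reads. In HEK-293T 1997 of 19966 genes (10%) changed at an adjusted p under 0.05 (edgeR's quasi-likelihood test, Benjamini-Hochberg), and without the first siHNRNPH1 library 12557 did. In HT-1080 10538 of 16145 (65.3%) changed. Of the 50 HEK-293T genes with an intron at least 20 points higher, 1 rose and 5 fell, and of the 61 with an intron at least 20 points lower 4 rose and 8 fell. Over all genes 5.12% rose and 4.88% fell, and of the genes with a measured intron 1.14% rose and 4.86% fell. Without the first siHNRNPH1 library, 44 of these 50 and 52 of these 61 changed, as did 12444 of the 19966 genes and 1019 of the 1316 tested genes with a measured intron. In HT-1080, of the 28 genes with a higher intron 7 rose and 13 fell, and of the 33 with a lower intron 10 rose and 11 fell, beside 32.7% and 32.6% over all genes and 28.4% and 45.9% of the 1110 tested genes with a measured intron. Host genes changed in both directions whichever way the intron went.

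Named hosts showed the same mix. HNRNPH3 was at 306, 318 and 307 CPM with siNegative and 536, 741 and 771 CPM with siHNRNPH1 in HEK-293T, and at 210, 204 and 206 and 408, 401 and 399 CPM in HT-1080, so the groups did not overlap in either line. It rose by 1.11 ± 0.15 (log2, SE) in HEK-293T and 0.90 ± 0.04 in HT-1080 (edgeR adjusted p = 0.0138 and 7.46e-08), while the share of its 506-nt intron was lower in HEK-293T. FXR1 was at 193, 194 and 194 CPM with siNegative and 84.0, 119 and 126 CPM with siHNRNPH1 in HEK-293T, and at 247, 248 and 243 and 185, 185 and 186 CPM in HT-1080. It fell by 0.85 ± 0.16 and 0.48 ± 0.04 (edgeR adjusted p = 0.0293 and 3.61e-06). PPHLN1 fell by 0.84 and 0.30 (edgeR adjusted p = 0.0391 and 0.000542). The HEK-293T calls of HNRNPH3, FXR1 and PPHLN1 were lost without any 1 of the siNegative libraries (edgeR adjusted p = 0.101 to 0.168) and without the second siHNRNPH1 library (edgeR adjusted p = 0.0658 to 0.110). Those of FXR1 and PPHLN1 were lost without the third siHNRNPH1 library too (edgeR adjusted p = 0.0592 and 0.0632).

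EIF4A2 was at 280, 280 and 291 CPM with siNegative and 312, 428 and 449 CPM with siHNRNPH1 in HEK-293T, where its change of 0.45 did not pass the test (edgeR adjusted p = 0.121), and it rose by 0.78 ± 0.04 in HT-1080 (edgeR adjusted p = 2.29e-07). The share of its 427-nt intron was higher in both lines. Its 704-nt intron, nearest the 3′ end, was retained by 70.4% and 72.9% of models in HEK-293T and 57.9% and 56.8% in HT-1080. NONO, by contrast, differed by -0.04 in HEK-293T and fell by 0.17 in HT-1080 (edgeR adjusted p = 0.858 and 0.00368), with an intron share nearly 20 points higher in both. ACADVL differed by -0.19 in HEK-293T and rose by 0.30 in HT-1080 (edgeR adjusted p = 0.625 and 0.000651). DEK, with a higher share in HEK-293T, differed there by -0.36 (edgeR adjusted p = 0.214) and fell by 1.40 in HT-1080 (edgeR adjusted p = 7.29e-09), where its share was 8.33% and 0%. SRSF7 differed by -0.06 in HEK-293T and fell by 0.90 in HT-1080 (edgeR adjusted p = 0.784 and 5.31e-07). MMP14 and FKBP10 rose in HT-1080 by 0.54 and 0.88 (edgeR adjusted p = 3.22e-06 and 1.31e-07). Leaving out the first siHNRNPH1 library of HEK-293T, the changes there passed the test for EIF4A2 (0.57), ACADVL (-0.44), DEK (-0.23) and SRSF7 (-0.12), at edgeR adjusted p = 2.34e-13, 5.42e-09, 5.92e-07 and 0.00115, and of 34 host genes of named introns 9 rose and 16 fell in place of 1 and 2, beside 448 and 571 of the 1316 genes with a measured intron.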

How the data were processed

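The IsoSeq files deposited by the authors hold exon positions (unit: other) of transcript models with no read number, on GRCh38.p13 per the submitters' processing notes, which also name RSEM. Tool versions are not given in the sources used here. Short-read libraries were quantified by the authors with RSEM, which gives expected counts for each variant, per the labels. These were summed per gene and rounded. No column of values was left unmatched to a sample. Introns, covering models and retaining models were found on chromosome and strand with Python 3.11.15, checked on simulated models with 0 of 3108 values differing. Gene names came from RefSeq tables (GRCh38.p14) by position. A share was used with at least 10 covering models in both pools of a line, and 20 points marked a shift. Genes were tested per line with edgeR 4.0.16 (TMM, filterByExpr, robust quasi-likelihood, Benjamini-Hochberg), with DESeq2 1.42.0 as an alternative; CPM are scaled to the library total. In simulated data edgeR recovered 12% of 2-fold and 89% of 4-fold changes over 19630 HEK-293T genes, and 97% and 99% over 15886 HT-1080 genes. Named introns were ranked on at least 20 covering models, per direction over both lines (10), per line (5) and by highest share (5), with at most 1 per gene. Those of EIF4G1, AURKA and the gene lists needed 10 in each pool. From each list gene the intron with the largest mean share over the 4 pools was taken. Members, lists and rules were chosen with earlier results of these data known. Intervals are exact Clopper-Pearson at 95%. Alternatives were other share definitions, minimum lengths, flanks, model numbers, chains, shifts, normalizations, filters and left-out libraries. The result for 1 intron under the named rule is not reported here.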

Additional observations from a re-analysis of the deposited data

Results flagged for a closer look

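Overlapping introns at 1 place in DDX11, which encodes a DNA helicase, differed in opposite directions in the 2 lines, and the difference between lines was not tested. The commonly spliced 395-nt intron (chr12:31089491-31089885, plus strand) was retained by 7 of 24 models (29.2%, 12.6 to 51.1%) with siNegative and 13 of 25 (52.0%, 31.3 to 72.2%) with siHNRNPH1 in HEK-293T. In HT-1080 it was retained by 9 of 16 (56.2%, 29.9 to 80.2%) and 2 of 10 (20.0%, 2.52 to 55.6%). The HT-1080 difference minus that of HEK-293T was -59.1 points, and the introns of 400, 365 and 230 nt that overlap it had the same counts. DDX11 has near-identical copies elsewhere in the genome, so the placing of its models is uncertain. The short-read level of DDX11 differed by 0.07 in HEK-293T and fell by 0.95 in HT-1080 (edgeR adjusted p = 0.815 and 1.08e-07). Without the first siHNRNPH1 library of HEK-293T, which stood apart from its group, it fell by 0.10 there (edgeR adjusted p = 0.0166). Dixon's criterion for a single outlying sample was not applied to these short-read groups of 3 libraries.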

How the results depend on the processing

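The numbers of introns at least 20 points higher and lower with siHNRNPH1 (85 and 132 in HEK-293T, 50 and 92 in HT-1080, 2 and 2 in both lines) depended on how shares were counted. Over retaining plus exactly spliced models they were 53 and 70, 24 and 45, and 1 and 1. The last 1 and 1 were other introns than the 2 and 2 in TENT2 and NELFCD, which were not past 20 points in HEK-293T by this share. With 20 covering models they were 15 and 12, 2 and 8, and 0 and 0. A shift of 30 points left 13 and 36, 18 and 24, and 0 and 0. Counting distinct intron chains gave 31 higher in HT-1080, and 1 and 4 in both lines, with the other counts within 1.5 times. With introns spliced in at least 2 models, 1 and 1 were left in both lines. Lower introns outnumbered higher ones in HEK-293T under each of these but that of 20 covering models. Of 2 alternatives chosen after seeing the data, keeping the 9241 introns spliced in at least 50% of covering models gave 26 and 53, 15 and 33, and 0 and 0, and keeping 1 of each of 12094 overlapping groups gave 36 and 58, 18 and 36, and 1 and 1. Introns of at least 50 nt, multi-exon models alone and a 50-nt flank moved none of these counts by over 1.5 times. Of 424 recomputed differences of named introns 414 moved by no more than the mean arm of the exact interval of the siHNRNPH1 share and 10 by more. Settings that only drop introns (at least 50 nt, spliced in 2 models or 50%, 1 per overlapping group) leave a difference unchanged. The 414 include these, and the intervals were wide, so this count does not measure how stable the differences were.

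The 1997 changed genes of HEK-293T became 1302 with no filter on low counts and 3982 with DESeq2. With the replicate block they were 0 (edgeR, with 4169 at an unadjusted p under 0.05), and leaving out 1 library gave 0 to 12557, the highest without the first siHNRNPH1 library. Those of HT-1080 stayed within 1.5 times of 10538 under every alternative run, at 10504 with the replicate block. Whether replicate numbers pair the samples was not tested. Deviations of log2 CPM from the mean of each siRNA group were correlated between siNegative and siHNRNPH1 libraries. For same-numbered libraries r was 0.180, 0.152 and 0.0521 in HEK-293T and 0.101, 0.179 and 0.070 in HT-1080. For differently numbered ones r was -0.192 to 0.127 in HEK-293T and -0.207 to 0.143 in HT-1080, most of them below 0. Deviations within a group sum to 0, so values above 0 for same numbers go along with values below 0 for others. Leaving out 1 library gave log2 changes of -0.10 to 0.16 for DDX11 in HEK-293T, where the main value was 0.07 (edgeR, adjusted p = 0.815), and the one below 0 was without the first siHNRNPH1 library (adjusted p = 0.0166). With 10 to 20 covering models an exact interval is wide, so shifts of 20 points were at the limit of what these models resolve.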
